A study of Mus musculus with 3 samples.

Results

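The miRNA families miR-297, miR-466, miR-467 and miR-669 were examined in BMDCs, dendritic cells grown from mouse bone marrow that take up and present antigen. They were taken by name alone, as every probe that names a mouse miRNA with one of those numbers, whatever the letter, strand or star. This gave 27 of the 568 mouse miRNA names in the table, each with its own probe and some shared by several mature miRNAs (33 mature names in all), on single-colour arrays with 579 mouse miRNA probes among 1408. The ID8 group shared a transwell plate with the mouse ovarian tumour line ID8 for 24 h, in 3% serum. The CT-26 group was kept in a plate of the same kind, under the same conditions, with CT-26, a line from a mouse colon carcinoma. For the control group the labels name no tumour line and give no culture conditions. With 1 array in each group nothing was replicated and no test could be run. Every ratio below describes a pair of arrays, and the ratios to control share the control array.

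Most of these miRNAs come from a long row of repeated hairpins in an intron of Sfmbt2, a Polycomb gene that in the mouse is imprinted and expressed from the paternal allele, with a known role in the placenta. A hairpin precursor is cut to a duplex whose 5p and 3p strands can each be loaded into Argonaute, where bases 2 to 8, the seed, choose the target transcripts. In the miR-466 and miR-297 hairpins the 5p strands are rich in GU repeats and the 3p strands in CA repeats. Of 81 RefSeq genes of these families in assembly GRCm38.p6, 71 lie inside Sfmbt2 and 10 elsewhere. Of the 20 precursor names read from the probes, 19 have a gene inside Sfmbt2, with miR-466b-3, a copy of miR-466b, counted apart from it. No gene was matched to the name miR-466a. Copies of a hairpin differ by few bases, so probes of this family may share signal, and the value of any probe is uncertain to that extent.

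The repeats that mark the family are visible in relatives for which the array has no probe. Their RefSeq sequences (GRCm38.p6) are shown because they carry the GU and CA runs named in the results, and capitals mark the seed. miR-466k lies at chr3:85467396-85467418 (plus strand), miR-467h at chr9:115381898-115381919 (plus strand), miR-466i-3p at chr13:17747552-17747573 (plus strand) and miR-467f at chr11:69635419-69635439 (minus strand).
miR-466k: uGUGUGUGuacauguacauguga
miR-467h: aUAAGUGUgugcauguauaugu
miR-466i-3p: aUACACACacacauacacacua
miR-467f: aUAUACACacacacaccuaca
The first pair holds a GU run (UGUGUG or GUGUGU) and the second pair a CA run (CACACA or ACACAC). Such runs, searched on the mature strand only and overlapping each other, occur in 1.91% (GU) and 1.02% (CA) of 1674 distinct mouse mature sequences. That set holds no sequence for any member on the array, so the shares leave the members out. The 8 relatives with a sequence have 8 distinct seeds.

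Detection was set at a background-corrected intensity of 50, the floor used here. Of the 27 probes, 23 reached it in the ID8 co-culture, 21 in the CT-26 co-culture and 22 in control BMDCs. Of all mouse probes, 33.2% reached the floor in the ID8 co-culture, 30.7% in the CT-26 co-culture and 30.2% in control BMDCs. No empty spot of 21 exceeded 1.75 units (ID8), 2.25 (CT-26) or 6 (control). Probes with no name also reached the floor, 185 (ID8), 164 (CT-26) and 183 (control) of 660, and what they target is not given. Signal above the floor does not by itself show that a probe bound the miRNA it is named for. By number, 4 of 4 miR-297 probes, 11 of 12 miR-466 probes, 4 of 8 miR-467 probes and 2 of 3 miR-669 probes were above the floor on all 3 arrays. Nearest to the floor were miR-467c (53.25 units) and miR-467b (44.25) on the ID8 array, miR-297b-5p (109.75) and miR-669b (42) on the CT-26 array, and miR-669b (59.25) and miR-467c (33.75) on the control array.

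**Figure D1:**
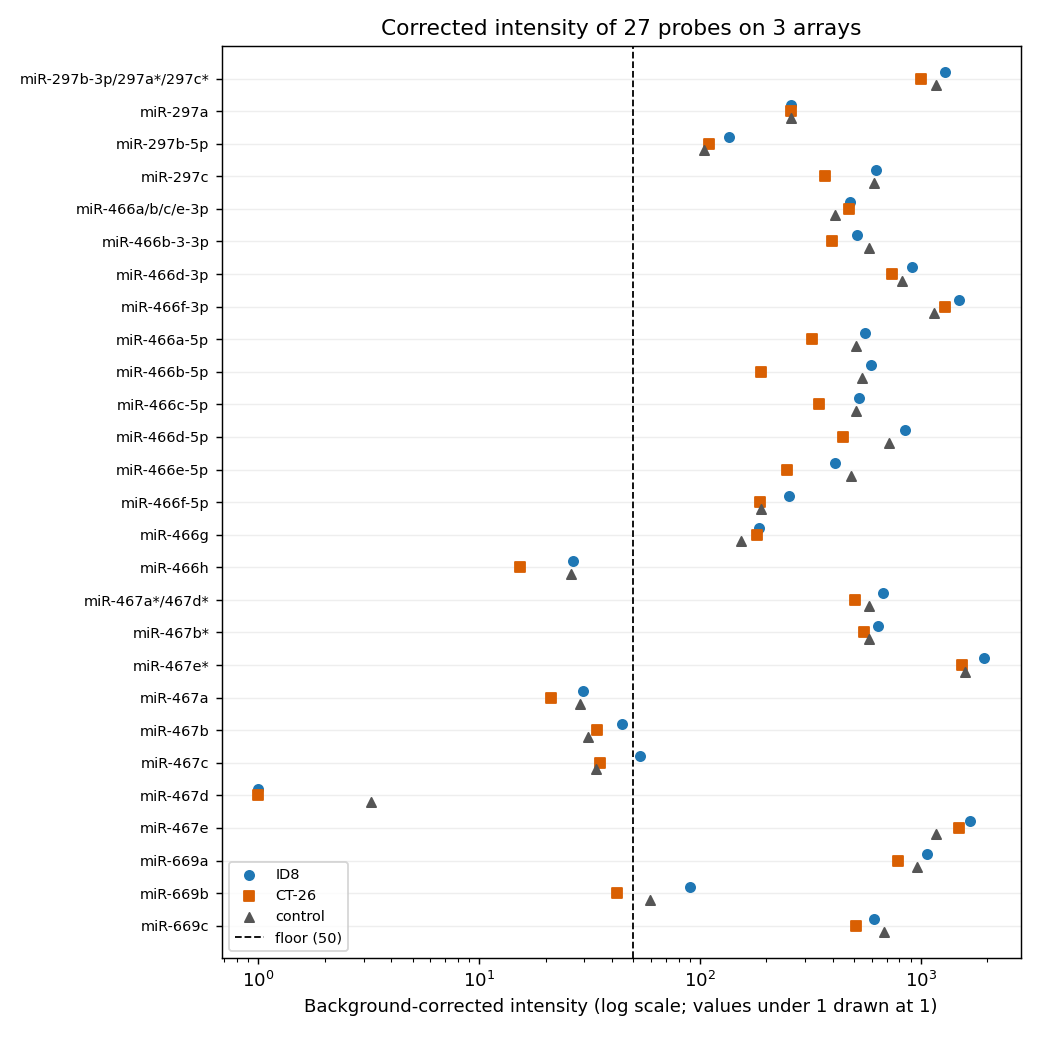
Background-corrected intensity (log axis) of each of the 27 probes on the ID8, CT-26 and control arrays, with 1 point per array and the floor of 50 as a dashed line. For miR-466a-5p to miR-466e-5p and miR-297c the CT-26 point lies left of the other 2 points. It does so for other probes too, such as miR-466d-3p, miR-467e* and miR-669a. miR-466h, miR-467a, miR-467b and miR-467d lie under the floor on every array.

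The arrays hold the miRNAs of blood cells. Of 3 listed blood-cell miRNAs (miR-142-3p, miR-142-5p and miR-223), 3 reached the floor beside ID8 cells, 3 beside CT-26 cells and 2 in control BMDCs. Their normalized intensities, the corrected intensity over a constant for each array, summed to 2.59 (ID8), 3.32 (CT-26) and 1.65 (control). The list did not move as one. In corrected units miR-142-5p read 501.25 (ID8), 752.25 (CT-26) and 181.5 (control), and miR-142-3p 409.5, 236.75 and 305. miR-223 read 122, 125.5 and 49 units, so its control value was just under the floor. The 4 miRNAs of activated myeloid cells (miR-155, miR-146a, miR-21 and miR-22) summed to 4.07, 3.74 and 0.882 on those arrays. Above the floor were 4, 4 and 3 of them, with miR-155 just under it at 49.5 units in control BMDCs. These lists do not separate dendritic cells from other myeloid cells. Among markers of other cells, the floor was reached on the ID8, CT-26 and control arrays by 1, 0 and 0 of 3 lymphocyte miRNAs and by 1, 1 and 1 of 7 epithelial miRNAs (miR-200b). It was reached by 1, 1 and 0 of 2 erythroid, 1, 1 and 1 of 1 liver, 2, 1 and 2 of 3 muscle and 1, 1 and 1 of 4 embryonic stem cell miRNAs. The muscle sums were 3.15 (ID8) and 6.04 (CT-26), against 2.10 (control), with miR-1 at 1131.75, 1982 and 563 units, and the embryonic stem cell sums 0.706 (ID8) and 1.70 (CT-26), against 0.703 (control), with miR-290-5p at 270.25, 559.75 and 213.5 units. The lymphocyte sums were 0.227 (ID8), 0.197 (CT-26) and 0.239 (control), the erythroid sums 0.225, 0.224 and 0.123 and the liver levels 0.178, 0.169 and 0.205 on the same arrays. The epithelial miR-429 read 0.25, -0.5 and -0.25 units and miR-205 -0.25, -0.75 and -3.75 units, and the summed epithelial levels were 0.437, 0.369 and 0.518. The probe for U6, the spliceosomal RNA many assays take as a loading control, had normalized intensities of 18.7, 16.3 and 7.76. The part of these shifts in the ratios below was not tested, and in such bulk RNA fewer cells of a type and less RNA per cell cannot be told apart.

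The first question was how these miRNAs differ between BMDCs beside CT-26 colon tumour cells and control BMDCs. The 5p strands of miR-466a to miR-466e and miR-297c were lower in the CT-26 co-culture, with log2 ratios from -0.59 to -1.57, while the 3p probes of these precursors had log2 ratios between -0.26 and 0.17, apart from miR-466b-3-3p at -0.61. Over the 9 measured 5p probes the median log2 ratio was -0.71, over the 5 3p probes -0.20, over all 21 measured members -0.24, and over all 158 measured mouse miRNAs 0.01. The 5p median was below 0 under each of the 5 other scalings of the arrays, from -1.78 with U6 scaling to -0.66 with no scaling. U6 scaling moved the median of all mouse miRNAs itself by about the same step, to -1.06. Strand was read from the names, and miR-297a and miR-297c were counted as 5p because their starred partners share a probe with miR-297b-3p. Members whose names give neither 5p nor 3p, such as miR-669a, miR-669c, miR-467e and miR-467e*, were placed in neither group. Which strand these are was not determined, so the 5p and 3p groups may leave out strands of the family.

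Levels are given below as normalized intensity, the corrected intensity in units of a constant for each array that equals the median of the 159 mouse probes above the floor on all 3 arrays. miR-466b-5p, from a precursor with 8 RefSeq copies inside Sfmbt2, read 1.49 (ID8) and 0.561 (CT-26), against 1.66 (control). Its CT-26 value was 2.97-fold below control (log2 ratio -1.57). It was the only member past 2-fold in this comparison, 1 of 21 lower and 0 of 21 higher, where 6.96% of all 158 measured mouse miRNAs were 2-fold lower and 13.3% 2-fold higher. The lower count was 2 with quantile normalization or with scaling to non-members, 17 with U6 scaling and 0 at a floor of 200, which leaves out miR-466b-5p itself. miR-466e-5p stood at 1.02 (ID8) and 0.742 (CT-26), against 1.48 (control), and was 1.99-fold lower beside CT-26 cells, just short of that threshold. Both co-cultures were below control for it, CT-26 by the wider margin.

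miR-297c gave 1.57 (ID8) and 1.10 (CT-26), against 1.90 (control), a 1.72-fold lower level beside CT-26 cells. miR-466d-5p gave 2.12 (ID8) and 1.33 (CT-26), against 2.20 (control), and was 1.66-fold lower beside CT-26 cells. For both, the CT-26 array was the low one and the ID8 array lay nearer to control. miR-466a-5p measured 1.41 (ID8) and 0.958 (CT-26), against 1.56 (control), 1.63-fold lower beside CT-26 cells. miR-466c-5p measured 1.32 (ID8) and 1.04 (CT-26), against 1.56 (control), a log2 ratio of -0.59 for CT-26 over control. For all 6 probes CT-26 was the lowest array and ID8 lay between it and control, although with no scaling between arrays the ID8 value of 5 of them exceeded control. That order was not particular to these 6 probes. It also held for probes named as 3p, such as miR-466d-3p and miR-466b-3-3p. Members whose names give neither 5p nor 3p had it too, such as miR-669a, miR-669c and the probe for miR-467a* and miR-467d*.

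The remaining probes read as 5p stood apart from those 6. miR-466f-5p, whose precursor has 3 RefSeq copies inside Sfmbt2 and 1 elsewhere, read 0.633 (ID8) and 0.556 (CT-26), against 0.582 (control), a log2 ratio of -0.06 for CT-26 over control. miR-297b-5p read 0.339 (ID8) and 0.327 (CT-26), against 0.320 (control), with a log2 ratio of 0.03. miR-297a read 0.646 (ID8) and 0.774 (CT-26), against 0.797 (control), with a log2 ratio of -0.04. The 3 miR-297 5p probes thus had CT-26 over control ratios from -0.78 for miR-297c to 0.03 for miR-297b-5p.

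**Figure D2:**
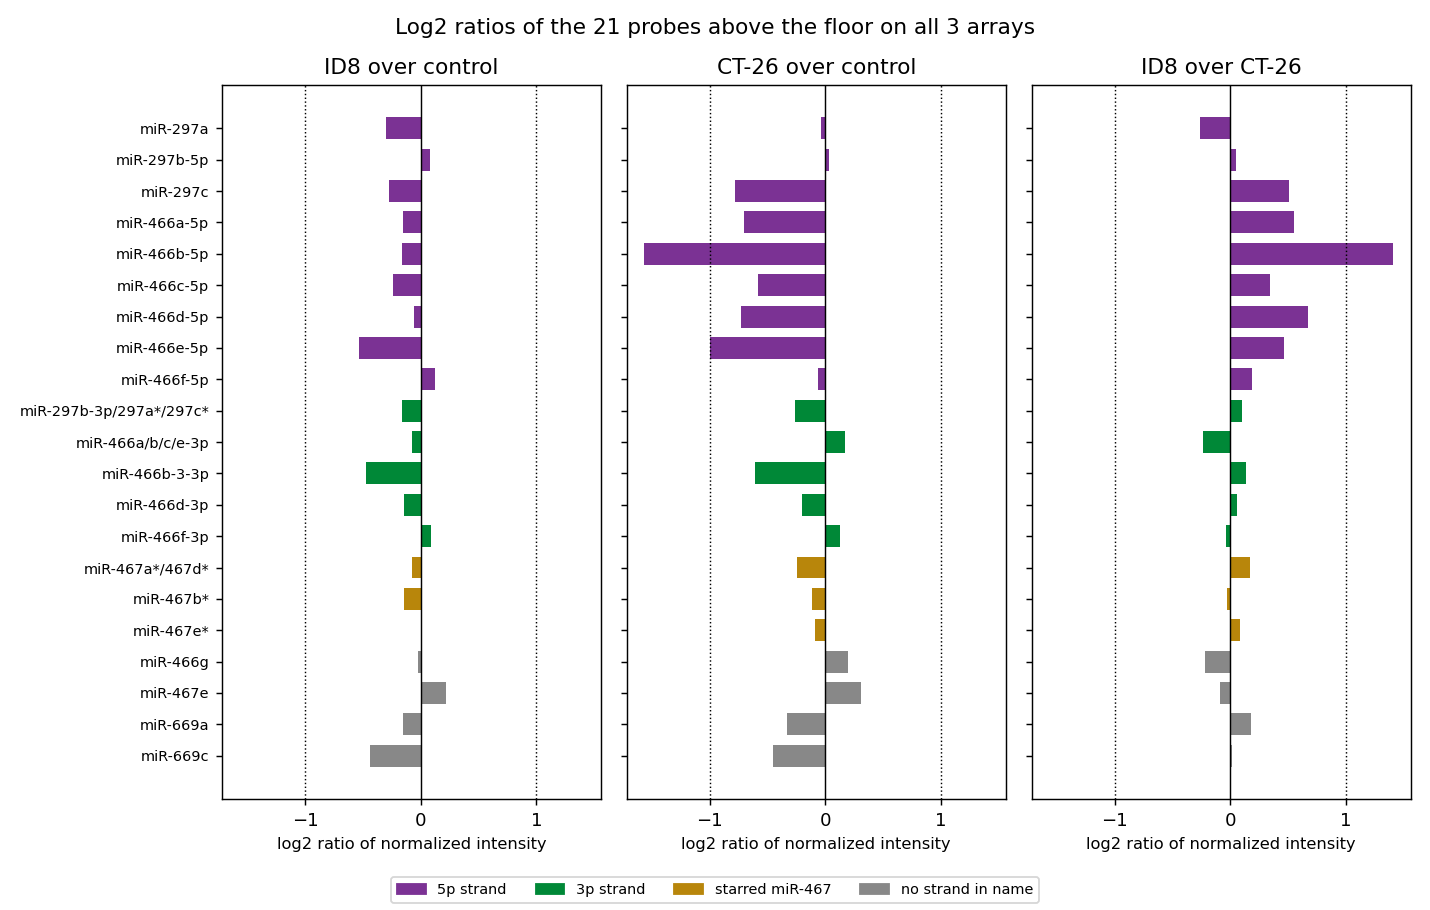
Log2 ratio of normalized intensity for each of the 21 probes above the floor on all 3 arrays, in 3 panels for ID8 over control, CT-26 over control and ID8 over CT-26; colours give the strand in the name and dotted lines mark 2-fold. In the CT-26 over control panel the bars of 6 of the 9 5p probes reach -0.59 or lower, and miR-466b-5p passes the 2-fold line at -1.57.

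Among the 3p strands, the probe shared by miR-466a-3p, miR-466b-3p, miR-466c-3p and miR-466e-3p read 1.20 (ID8) and 1.41 (CT-26), against 1.26 (control), with a log2 ratio of 0.17 for CT-26 over control. miR-466d-3p read 2.29 (ID8) and 2.20 (CT-26), against 2.53 (control), with a ratio of -0.20. For miR-466f-3p the values were 3.75 (ID8) and 3.84 (CT-26), against 3.53 (control), a ratio of 0.12. On these 3 probes the arrays lay close together. miR-466b-3-3p, named for a single copy of the miR-466b gene, was the exception, at 1.29 (ID8) and 1.18 (CT-26), against 1.79 (control), 1.52-fold lower beside CT-26 cells. The probe for miR-297b-3p, miR-297a* and miR-297c* gave 3.22 (ID8) and 3.00 (CT-26), against 3.60 (control), a ratio of -0.26.

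Setting both strands of the same precursor side by side takes out the scaling of the arrays, since a constant for an array cancels. Over the 9 precursors of miR-297a to miR-297c and miR-466a to miR-466f, the CT-26 over control ratio of the 5p strand was below that of the 3p strand in 7 and above it in 2, miR-297a and miR-297b. The median difference, 5p minus 3p, was -0.53 on the log2 scale and the range -1.74 (miR-466b) to 0.30 (miR-297b). Set against miR-466b-3-3p in place of the shared 3p probe, the difference for miR-466b was -0.96. For miR-466d, which has a probe of its own for each strand, it was -0.53, and for miR-466f, also with its own probes, -0.19. The 9 precursors share 4 3p probes, so these differences are not independent. miR-467e and miR-467e* also come from a single precursor and were above the floor on every array. Their names give neither 5p nor 3p, and they were not among the 9. The CT-26 over control log2 ratios were 0.31 for miR-467e and -0.09 for miR-467e*.

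**Figure D3:**
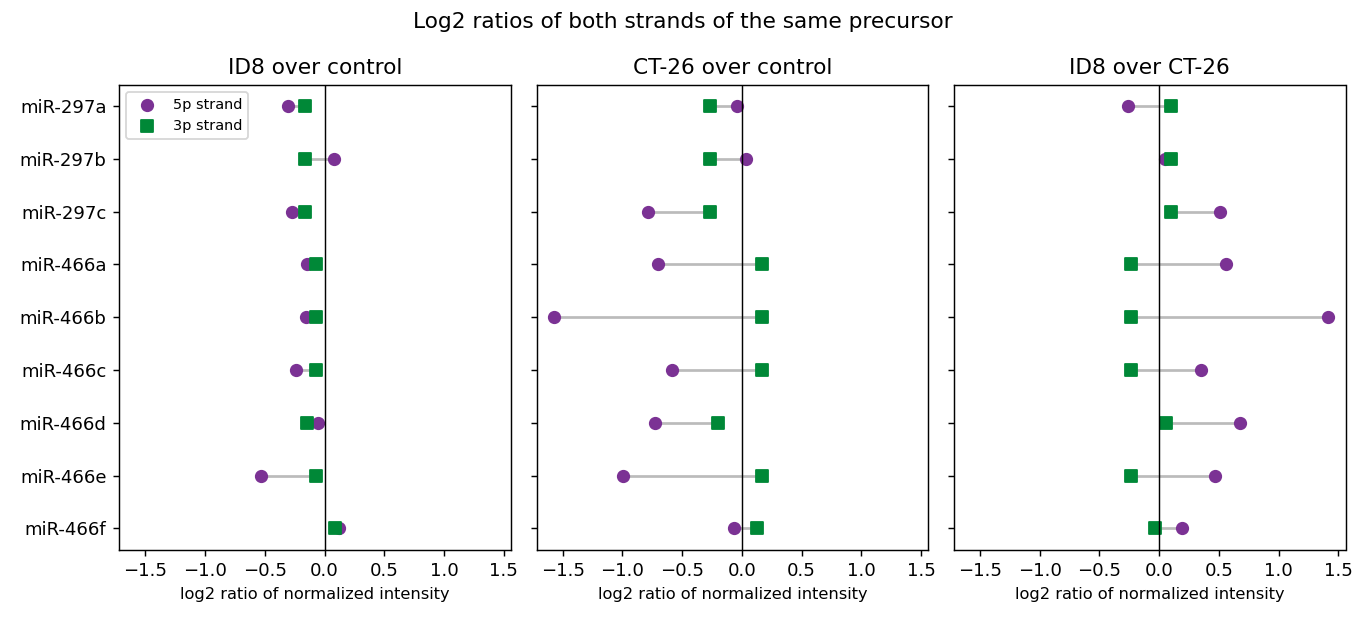
Log2 ratios of the 5p strand (circles) and the 3p strand (squares) of 9 precursors, joined by a line, for ID8 over control, CT-26 over control and ID8 over CT-26. The precursor of miR-467e and miR-467e* is not drawn. In the CT-26 over control panel the circle lies left of the square in 7 of 9 precursors, with a difference of -1.74 for miR-466b, while for ID8 over control the differences run from -0.46 to 0.25.

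At a wider threshold of 1.5-fold, 7 of the 21 measured members were lower beside CT-26 cells, where the share over all mouse miRNAs was 18.4%, and 0 of 21 were higher, where that share was 22.8%. The 7 were the 6 5p probes above and miR-466b-3-3p. miR-466c-5p and miR-466b-3-3p lay close to the threshold, and the count was 5 with no scaling between arrays and 21 with U6 scaling.

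Beside ID8 ovarian tumour cells the members differed little from control BMDCs. All 22 measured members had log2 ratios between -0.53 (miR-466e-5p) and 0.31 (miR-669b), whereas all 165 measured mouse miRNAs ranged from -2.05 to 2.29. None of the 22 was 2-fold higher or lower, where 4.85% of all mouse miRNAs passed that fold upward and 3.03% downward. With U6 scaling, which moved the median of all mouse miRNAs to -1.25, 21 of the 22 were at least 2-fold lower and their median was -1.41. At 1.5-fold the member counts were also 0 and 0, beside shares of 9.09% and 7.27% over all mouse miRNAs. Of the 22 members, 16 were below control (76 of 165, or 46.1%, over all mouse miRNAs), with a median log2 ratio of -0.14 that was 0.15 with no scaling between arrays and 0.01 when each array was scaled to the median of its own probes above the floor. Relative to the median of all mouse miRNAs the members stood at -0.17, and at -0.05 after quantile normalization.

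The probes read as 5p and as 3p had similar ID8 over control ratios. The medians were -0.16 over 9 5p probes (0.13 with no scaling between arrays) and -0.14 over 5 3p probes. The median difference between strands of the same precursor was -0.09. After miR-466e-5p the lowest were miR-466b-3-3p (log2 ratio -0.47) and miR-669c (-0.43), and the highest after miR-669b was miR-467e (0.22).

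A direct ratio of ID8 to CT-26 asked how these miRNAs depend on the tumour line, without the control array. Of the 9 probes read as 5p, 8 were higher beside ID8 cells (6 with U6 scaling), beside 86 of 175 over all mouse miRNAs. The median log2 ratio of the 9 was 0.47, which was 0.27 with U6 scaling. The ID8 level exceeded the CT-26 level by 2.66-fold for miR-466b-5p and by 1.59-fold for miR-466d-5p. miR-466a-5p, miR-297c, miR-466e-5p and miR-466c-5p had log2 ratios of 0.56, 0.51, 0.47 and 0.35. miR-297a went the other way, 1.20-fold lower beside ID8 cells.

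The probes read as 3p had a median log2 ratio of 0.06 between the co-cultures, with a range from -0.24 to 0.13. Past 2-fold was 1 of 21 members on the higher side, miR-466b-5p, and 0 on the lower side, where 2.29% and 6.29% of 175 measured mouse miRNAs were higher and lower. At 1.5-fold 2 were higher, beside a share of 6.29%, and 0 lower, beside 10.3%. The higher count was 6 with no scaling, 5 with each array scaled to its own median and 1 with U6 scaling or a floor of 200. The median over all 21 members was 0.10, and it was -0.10 with U6 scaling. Over precursors the 5p strand had the higher ID8 over CT-26 ratio in 7 of 9, by a median of 0.59. Outside those 9, miR-467e and miR-467e* had ID8 over CT-26 log2 ratios of -0.09 and 0.09.

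**Figure D4:**
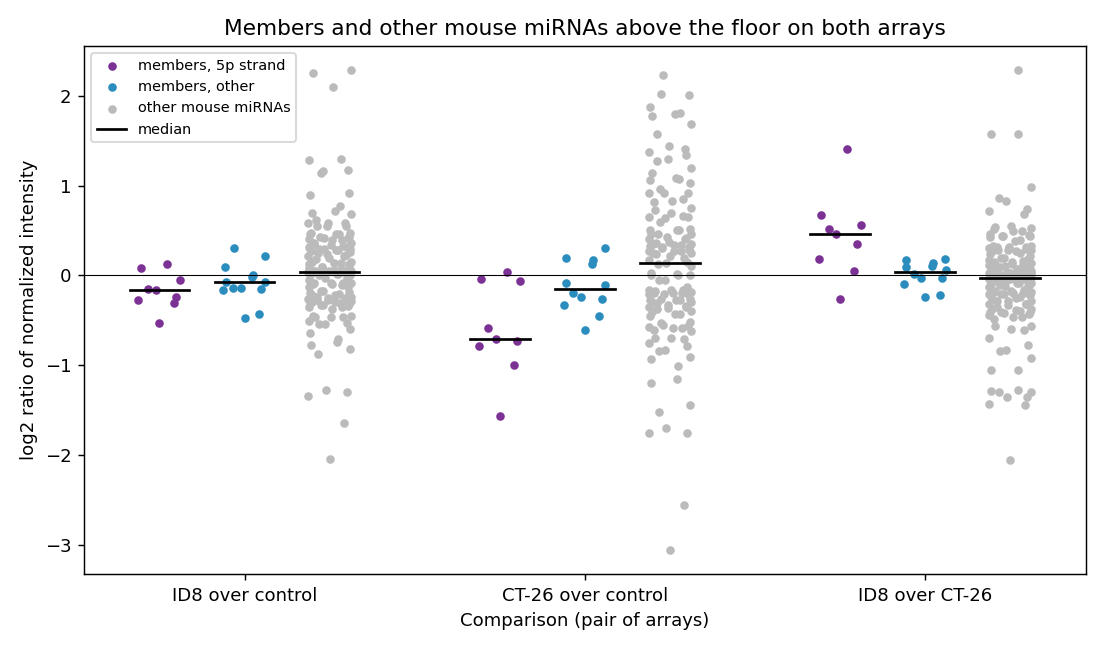
Log2 ratios of the members read as 5p from their names, the other members and all other mouse miRNAs detected on the pair of arrays, 1 point per miRNA and a bar at each median, for the 3 comparisons. The other members include those whose names give neither 5p nor 3p. The 5p members have medians of -0.16 (0.13 with no scaling between arrays), -0.71 and 0.47 from left to right, and the other mouse miRNAs of 0.04, 0.14 and -0.03.

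The miR-467 members moved little in either co-culture. miR-467, described in the mouse as a regulator of thrombospondin-1 under high glucose, is made as a main and a starred strand, the star being the older mark for the less abundant strand. miR-467e* read 4.86 (ID8) and 4.57 (CT-26), against 4.86 (control). The probe for miR-467a* and miR-467d* read 1.69 (ID8) and 1.51 (CT-26), against 1.78 (control). miR-467b* read 1.61 (ID8) and 1.65 (CT-26), against 1.78 (control). All 6 ratios of these starred probes to control lay between -0.24 and 0.00. Without a star, miR-467e gave 4.18 (ID8) and 4.46 (CT-26), against 3.60 (control), with log2 ratios of 0.22 (ID8) and 0.31 (CT-26), which turned to -0.02 and -0.08 with quantile normalization.

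The other unstarred miR-467 probes were dim. miR-467c read 53.25 units (ID8) and 35.25 (CT-26), against 33.75 (control), so it passed the floor on the ID8 array alone, and no fold is given because its level there was under the lowest detected level of either other array. miR-467b read 44.25 units (ID8) and 34.25 (CT-26), against 31 (control). miR-467a read 29.5 (ID8) and 21.25 (CT-26), against 28.5 (control), and miR-467d -2.5 (ID8) and -2 (CT-26), against 3.25 (control). These 3 were not above the floor on any array, nor was miR-466h, known from hamster cells as a promoter of apoptosis, with 26.5 units (ID8) and 15.25 (CT-26), against 26 (control). Its neighbour in the cluster, miR-466g, was above the floor, at 0.465 (ID8) and 0.539 (CT-26), against 0.471 (control) in normalized intensity.

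Of the miR-669 members, miR-669a, known in mouse muscle progenitors as a repressor of MyoD, read 2.67 (ID8) and 2.36 (CT-26), against 2.97 (control). miR-669c read 1.54 (ID8) and 1.52 (CT-26), against 2.09 (control). Both were below control in both co-cultures, with log2 ratios of -0.15 (ID8) and -0.33 (CT-26) for miR-669a and of -0.43 (ID8) and -0.45 (CT-26) for miR-669c, except that miR-669a beside ID8 cells stood at 0.14 with no scaling between arrays and at 0.0066 with each array scaled to its own median. miR-669b lay near the floor, at 90 units (ID8) and 42 (CT-26), against 59.25 (control). Its CT-26 value was thus below the floor, at least 1.22-fold under control, and its ID8 level was at least 1.52-fold above the CT-26 level.

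GU and CA runs also occur in 4 other mouse miRNAs that reached the floor and whose names match a RefSeq mature sequence exactly. The strands of miR-574 are printed because the 5p strand carries a GU run and the 3p strand a CA run (GRCm38.p6, chr5:64970328-64970350 and chr5:64970364-64970385, plus strand, seeds in capitals).
miR-574-5p: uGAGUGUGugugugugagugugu
miR-574-3p: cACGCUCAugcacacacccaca
miR-574-5p read 1.09 (ID8) and 0.223 (CT-26), against 1.86 (control), and miR-574-3p 1.61 (ID8) and 1.00 (CT-26), against 2.22 (control), giving CT-26 over control log2 ratios of -3.06 and -1.15. Like the 6 miR-466 and miR-297 5p probes, both were lowest on the CT-26 array. miR-713, with a CA run, read 2.34 (ID8) and 1.63 (CT-26), against 2.06 (control), and miR-362-3p, also with a CA run, 0.605 (ID8) and 0.617 (CT-26), against 0.706 (control). Their CT-26 over control ratios were -0.34 and -0.19. Whether GU repeats themselves go with the lower signal on the CT-26 array was not tested.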

How the data were processed

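The deposited table holds raw intensity, background-corrected intensity and normalized intensity for 1408 probes on 3 arrays, per the file headers. RNA was labelled with Hy3, per the labels' protocols, and scanned with a GenePix 4000B, per the series' design text. How spots were averaged and scaled is not given in the sources used here. Corrected over normalized intensity was a constant within each array, 398.25 (ID8), 335.25 (CT-26) and 325 (control), and the series matrix holds the same normalized intensity. The table's spelling 1D8 was taken as the labels' ID8. The files name no genome build.

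Log2 ratios were taken from the normalized intensity where both arrays reached a corrected intensity of 50, and repeated probes of a miRNA (none among the members) entered as their mean log2 ratio. For a miRNA under the floor on 1 of the arrays, a bound was formed with the lowest detected level of that array. With 1 array per group there is no estimate of error, and the number of arrays limits the precision. Background under the members was 46.75 to 62.5 units, and the median member signal was 10.7, 7.13 and 8.61 times it on the ID8, CT-26 and control arrays.

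The members and lists were chosen with earlier results of these data known. Every member above the floor on at least 1 array is named, and the others are given by value. The calculation was tested on simulated data. Analyses used Python 3.11.15 with pandas 2.3.3. Mature sequences of the members, and groupings by their seed and GC content, were not used here.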

Additional observations from a re-analysis of the deposited data

Results flagged for a closer look

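For 5 members the ID8 and CT-26 co-cultures lay on opposite sides of the control in normalized intensity. The difference was not tested, since each group has 1 array, and it is small for most. The log2 ratio of ID8 over CT-26 was -0.24 for the probe shared by miR-466a-3p, miR-466b-3p, miR-466c-3p and miR-466e-3p, -0.21 for miR-466g, 0.19 for miR-466f-5p and 0.088 for miR-467e*. miR-669b was at least 1.52-fold higher beside ID8 cells, with the CT-26 value under the floor and the control value of 59.25 units just above it. The split depends on the processing. With no scaling between arrays the shared 3p probe (0.22 for ID8 over control, 0.21 for CT-26 over control) and miR-466g (0.27 and 0.24) were above control in both. With quantile normalization miR-466g (-0.14 and -0.17), miR-466f-5p (-0.03 and -0.33) and miR-467e* (-0.08 and -0.36) were below it in both, and on raw intensity miR-669b had an ID8 over control ratio of -0.0046.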

How the results depend on the processing

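The member medians, 5p medians, strand differences, counts past a fold and single-member ratios were recomputed under other scalings, floors and background treatments, and the detection counts under other floors. The 3p medians, marker sums, bounds and non-member ratios were not recomputed. The 5p medians, strand differences and counts at 1.5-fold were added to the alternatives after the data were seen. A log2 value was taken as moved when it shifted by 1.5-fold or more, and a count when it changed by over 1.5 times. Of 197 group values under alternatives, 176 did not move, and of 626 single-miRNA values 583 did not, the other 43 all under U6 scaling. Part of this was fixed in advance, so the tally does not measure how firm the values are. Another floor leaves the ratio of a measured miRNA unchanged, and a constant for an array cancels in the strand differences. No member ratio for ID8 over control reached 1.5-fold, so a turn of sign there could pass as not moved. The miR-466b-5p ratios past 2-fold kept their sign wherever they were measured. Values near 0 did turn, among them the member median for ID8 over control (0.15 with no scaling, 0.013 with each array scaled to its own median), its 5p median (0.13 with no scaling) and the member median for ID8 over CT-26 (-0.095 with U6 scaling).

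With U6 scaling the member medians were -1.41 (ID8 over control) and -1.32 (CT-26 over control) and the 5p medians -1.43 and -1.78. The members at least 2-fold lower then numbered 21 (ID8 over control) and 17 (CT-26 over control), those at least 1.5-fold lower 21 (CT-26 over control) and those at least 1.5-fold higher 1 (ID8 over CT-26). For CT-26 over control, 2 members were at least 2-fold lower after quantile normalization, with scaling to non-members and with no floor, 7 at a 1.5-fold threshold, and 0 at a floor of 200 or a 4-fold threshold. For ID8 over CT-26, 2 were higher at a 1.5-fold threshold and 0 at a floor of 200 or a 4-fold threshold. The floor of 200 leaves out miR-466b-5p, whose CT-26 value was 188 units. With no floor 1 member was at least 2-fold lower for ID8 over control, miR-467d. It was also 1 of the 2 for CT-26 over control with no floor. miR-467d read -2.5 units (ID8) and -2 (CT-26), against 3.25 (control). Values under 1 unit were raised to 1 before these ratios were taken, so both of its calls follow from that rule. At 1.5-fold, 6 members were higher for ID8 over CT-26 with no scaling, 5 with each array scaled to its own median and 1 at a floor of 200. The median strand difference for CT-26 over control ran from -0.64 to -0.48 over all alternatives.

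No paired analysis was possible because each group has 1 array. Members near the floor, such as miR-467c and miR-669b, have the least signal over background.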

Other observations

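The number of RefSeq gene copies differs widely among these precursors. miR-467a has 10 RefSeq genes, all inside Sfmbt2, and its unstarred strand was under the floor on every array, at 29.5 units (ID8) and 21.25 (CT-26), against 28.5 (control). miR-467e has 1 RefSeq gene and its unstarred strand read 1665 units (ID8) and 1494 (CT-26), against 1170 (control). miR-669a, with 12 genes, read 1064.5 units (ID8) and 790.75 (CT-26), against 964.25 (control), and miR-669b, with 1 gene, 90 units (ID8) and 42 (CT-26), against 59.25 (control). Intensities of different probes are not on a common scale, so these are given as values and not ranked.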
